A study of Mus musculus with 18 samples.

Results

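The 10 amino acid transporters examined were Slc7a5, Slc3a2 and Slc7a8, which handle large neutral amino acids, Slc7a1, Slc7a2 and Slc7a6, which handle cationic amino acids, Slc38a1, Slc38a2 and Slc38a4, which are sodium-coupled carriers of small neutral amino acids, and Slc1a5, an exchanger of neutral amino acids. They were chosen by name, with earlier results of these data known. The study had already reported changes of Slc7a5 and Slc7a2 from these arrays. Counts of calls among the 10 genes, set beside those over all probesets or other genes, are therefore descriptions. Every probeset that the chip annotation assigns to 1 of these genes was taken, which gave 21 of the 45037 probesets on the MOE430A and MOE430B chips, and 20 of the 21 were bright enough to be tested. Abundance of mRNA was determined in the gracilis muscle of male C57BL/6J mice, 3 to 5 wk of age at the start, with 3 pools of 3 mice in each group. Mice of the 10 D group were given 10 daily injections of clenbuterol, an agonist of beta-adrenergic receptors, at 1 mg/kg. Those of the 24 h group were given 1 such dose, preceded by 9 injections of vehicle. C mice had vehicle throughout. Muscle was collected 24 h after the last of the 10 injections in each group, so 24 h and 10 D differ in the number of doses and not in the time since the last one. Mice had been picked from larger groups to widen the contrast in weight gain and urea in the blood, and whole cages had been assigned to treatments. The p-values therefore measure the spread between pools of selected mice.

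Amino acids enter and leave muscle fibres through membrane carriers. Sodium-coupled carriers such as Slc38a2, known as SNAT2, concentrate glutamine and alanine inside the cell. The Slc7a5 protein is the light chain of the dimer known as LAT1, in which Slc3a2 is the heavy chain, and this dimer trades intracellular glutamine for leucine and other large neutral amino acids. Leucine is a signal for the kinase complex mTORC1, which promotes protein synthesis. Slc38a2, Slc7a1 and Slc7a5 are known in cultured cells as genes whose transcription is raised by Atf4 when amino acids are scarce, and beta-adrenergic agonists are known to increase muscle mass in rodents.

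The level of a probeset is given as its signal divided by the median signal of the same array, so a level of 1 is that of the middle probeset of the chip. Levels can be compared between pools for 1 probeset but not between probesets. Changes are log2 differences between group means ± SE, from a linear model fitted with limma to 9 pools per chip, and a probeset was called when its adjusted p, two-sided and over all 33752 tested probesets of both chips, was under 0.1.

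Array medians ran from 30.8 to 88.4 on MOE430A and from 13.2 to 37.1 on MOE430B, and correlations between pools of a group from 0.826 to 0.952 and from 0.746 to 0.843 over the tested probesets. Pool 2 of 24 h and pool 2 of 10 D stood apart from their groups and deviated together, with a correlation of their deviations of 0.56 on MOE430A and 0.16 on MOE430B (0.39 and 0.11 for pool 1 of these groups). The counts and changes that lead the results are therefore also given without both of them.

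At 24 h, 2 of the 20 tested transporter probesets were called against C, and both were higher. They were the single probeset of Slc7a5 and 1 of the 3 probesets of Slc38a2. In whole muscle, more RNA of a gene per cell and more cells that express it cannot be told apart. Over all tested probesets 154 were called in this comparison, or 0.456%. The same 2 probesets were the 2 of 20 that passed the F test of the 3 groups, which called 0.216% of all tested probesets. The F test no longer called Slc38a2 under 6 of 12 other settings, nor without any 1 of 8 of the 9 pools. At 10 D, limma called 0 of the 20 transporter probesets and 0% of all tested probesets against C. At an unadjusted p under 0.05, 3 of the 20 transporter probesets were found at 10 D (4.56% of all tested probesets), and 7 of the 20 at 24 h (8.55% of all). The unmoderated linear model also called 0 of the 20 at 10 D, and 0 over all tested probesets. The fit with array weights called 4, and 2880 over all tested probesets. That fit stopped before it converged and gave 10 D pool 3 a weight of 17.0 on MOE430A. In the direct comparison of 10 D with 24 h, 0 of the 20 were called by limma, and 0.0504% of all tested probesets were called. At an unadjusted p under 0.05 there were 6 of the 20 (5.48% of all). Without pool 2 of 24 h and of 10 D, 3 of the 20 were called at 24 h against C (599 over all tested probesets), Slc7a1 1454992_at being added, and 0 at 10 D (5 over all).

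In 8 of the 20 probesets all 24 h pools lay above all C pools, and in 3 they lay below, against 9.60% above and 7.23% below over all tested probesets. At 10 D, 4 of the 20 lay above all C pools and 0 below, against 5.76% and 4.52%. Between the treated groups, 1 of the 20 had all 10 D pools above all 24 h pools and 5 had them below, against 4.17% and 5.10%. Probesets of the same gene share a target and are not independent. With the brightest tested probeset standing for each of the 10 genes, the 24 h pools lay above C in 5 genes, below in 2 and overlapped in 3. The median log2 change of these 10 probesets was 0.44 at 24 h against C and 0.15 at 10 D against C, and the same medians over 15184 genes were 0.04 and 0.03.

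**Figure D1:**
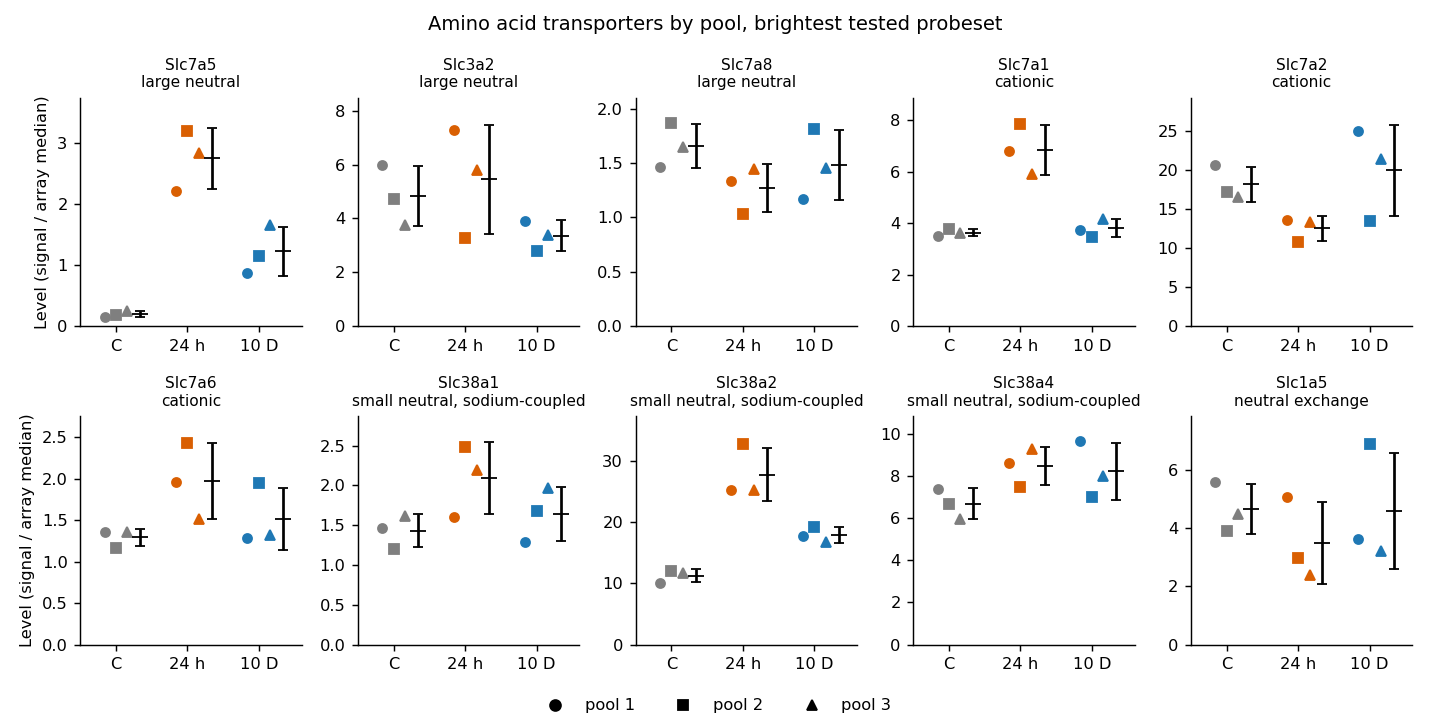
Level (signal divided by the array median, linear axis from 0) of the brightest tested probeset of each transporter in C, 24 h and 10 D. Each symbol is 1 pool of 3 mice, and the bar beside each group is the mean ± SD of its 3 pools. The 24 h pools lie above all C pools in Slc7a5, Slc7a1, Slc7a6, Slc38a2 and Slc38a4 and below them in Slc7a2 and Slc7a8.

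Upstream sequence from RefSeq (build GRCm38.p6) was found for 6 of the 10 genes, in 10 windows. The 250 bases before a start site are shown for Slc38a2, the called gene with a window, for the first window of Slc7a1, which came nearest to the threshold at 24 h among the genes not called, and for the heavy chain Slc3a2 as the contrast. Each is written 5′ to 3′ on the gene's own strand, the minus strand for all 3. Capitals mark TGACG, the core of the cAMP response element, and GGGCGG, the GC box, on either strand. They stand at chr15:96699729-96699978 (Slc38a2), chr5:148399905-148400154 (Slc7a1) and chr19:8713898-8714147 (Slc3a2).
Slc38a2: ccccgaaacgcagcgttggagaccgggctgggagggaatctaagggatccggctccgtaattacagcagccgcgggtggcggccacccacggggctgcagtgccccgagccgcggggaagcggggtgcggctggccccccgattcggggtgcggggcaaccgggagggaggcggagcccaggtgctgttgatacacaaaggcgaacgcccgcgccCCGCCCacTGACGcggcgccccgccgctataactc
Slc7a1: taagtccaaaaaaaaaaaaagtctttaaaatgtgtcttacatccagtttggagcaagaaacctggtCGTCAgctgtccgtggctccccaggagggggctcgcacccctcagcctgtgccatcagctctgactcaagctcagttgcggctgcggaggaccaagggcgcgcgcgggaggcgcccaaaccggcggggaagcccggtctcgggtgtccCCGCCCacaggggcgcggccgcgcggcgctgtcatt
Slc3a2: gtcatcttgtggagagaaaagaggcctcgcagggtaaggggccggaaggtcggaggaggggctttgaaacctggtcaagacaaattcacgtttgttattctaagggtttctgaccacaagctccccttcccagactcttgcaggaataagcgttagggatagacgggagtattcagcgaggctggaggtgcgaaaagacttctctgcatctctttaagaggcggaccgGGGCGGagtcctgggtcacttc
Position -1 is the last base before the start. In Slc38a2 the TGACG core began at -27 and the GC box, on the opposite strand, at -35. In Slc7a1 the TGACG core, on the opposite strand, began at -184 and the GC box, on that strand too, at -36. Slc3a2 had a GC box at -22 and no TGACG core. Among the windows not shown, 1 of Slc38a4 and 1 of Slc7a6 also held TGACG, and neither gene was called. The other window of Slc7a1 held neither TGACG nor GGGCGG. Over all 32851 windows of this length, 17.8% held TGACG and 32.7% held GGGCGG. The full cAMP response element TGACGTCA (1.55% of all windows) and TGATGNAA, a core shared by C/EBP-ATF composite sites (3.45%), were in 0 of the 10 transporter windows. TATAAA (12.4% of all windows) and CCAAT (33.8%) were in none of the 3 windows shown. The other window of Slc7a1 held TATAAA, and a window of Slc38a4 held both. Both strands were searched. All motifs but TGACGTCA and TGATGNAA were chosen after the transporter windows had been read, so their matches in the windows shown are a description. A match of letters does not show a bound site, and the absence of a match covers only these bases.

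Among the transporters of large neutral amino acids, Slc7a5 mRNA rose at 24 h, whereas the heavy chain Slc3a2 and the related light chain Slc7a8 were not called in any comparison. The level of Slc7a5 (probeset 1418326_at, MOE430A) was 0.153, 0.179 and 0.250 in the C pools, 2.22, 3.20 and 2.85 in the 24 h pools, and 0.879, 1.14 and 1.67 in the 10 D pools. The ranges of the 3 groups did not overlap, with 24 h highest and 10 D between 24 h and C. The log2 change was 3.84 ± 0.33 at 24 h against C (adjusted p = 0.0026) and 2.65 ± 0.33 at 10 D against C (adjusted p = 0.111, not called). The log2 difference of 10 D from 24 h was -1.20 ± 0.33 (adjusted p = 0.543). The 24 h call held under all 20 other settings in which the probeset was tested, with adjusted p from 0.000168 to 0.052, and without pool 2 of 24 h and of 10 D the log2 change was 3.73 at 24 h and 2.67 at 10 D.

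The size of the Slc7a5 change is less certain than its direction, because the C signals were dim. They were 4.7, 11.6 and 10.7, all under the signal of 14.1 at which probesets of this chip entered the test, against 138, 114 and 146 in the 24 h pools and 77.7, 38.4 and 77.6 in the 10 D pools. With the C signals raised to 14.1, the 24 h pools were 8.52-fold and the 10 D pools 3.71-fold above C, compared with 14.4-fold and 6.26-fold as measured. Its C mean lay at percentile 17.9 of the chip, the lowest of the 10 genes' brightest probesets. The probeset thus passed the filter only through its treated pools. With no filter on dim probesets it was still called by limma at 24 h (adjusted p = 0.0039).

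Slc3a2, the heavy chain, was measured by 1425364_a_at at 5.98, 4.73 and 3.76 in the C pools, 7.27, 3.28 and 5.81 in the 24 h pools, and 3.92, 2.77 and 3.37 in the 10 D pools. These ranges overlapped in all 3 comparisons. Its log2 change against C was 0.13 ± 0.31 at 24 h (adjusted p = 0.946) and -0.51 ± 0.31 at 10 D (adjusted p = 1.00). The log2 ratio of Slc7a5 to Slc3a2 within a pool was higher by 3.72 at 24 h than in C and by 3.16 at 10 D than in C, as measured. With the Slc7a5 signals in C raised to 14.1 these differences were 2.96 and 2.41. Each of the measured differences has an exact two-sided permutation p of 0.1, the smallest that 3 pools against 3 can give, and 3 such comparisons were made. The third, 10 D against 24 h, gave a difference of -0.56 with a permutation p of 0.5. Since the treated pools already lay far above C in Slc7a5 alone, the p-values of 0.1 add nothing to the Slc7a5 result. Slc7a8, the light chain of the dimer known as LAT2, had a level of 1.27 ± 0.22 at 24 h, against 1.66 ± 0.20 in C (SD, n = 3 each), with all 24 h pools below all C pools, and its log2 change of -0.39 ± 0.25 was not called (adjusted p = 0.728). Its level at 10 D was 1.48 ± 0.32 and overlapped both.

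**Figure D2:**
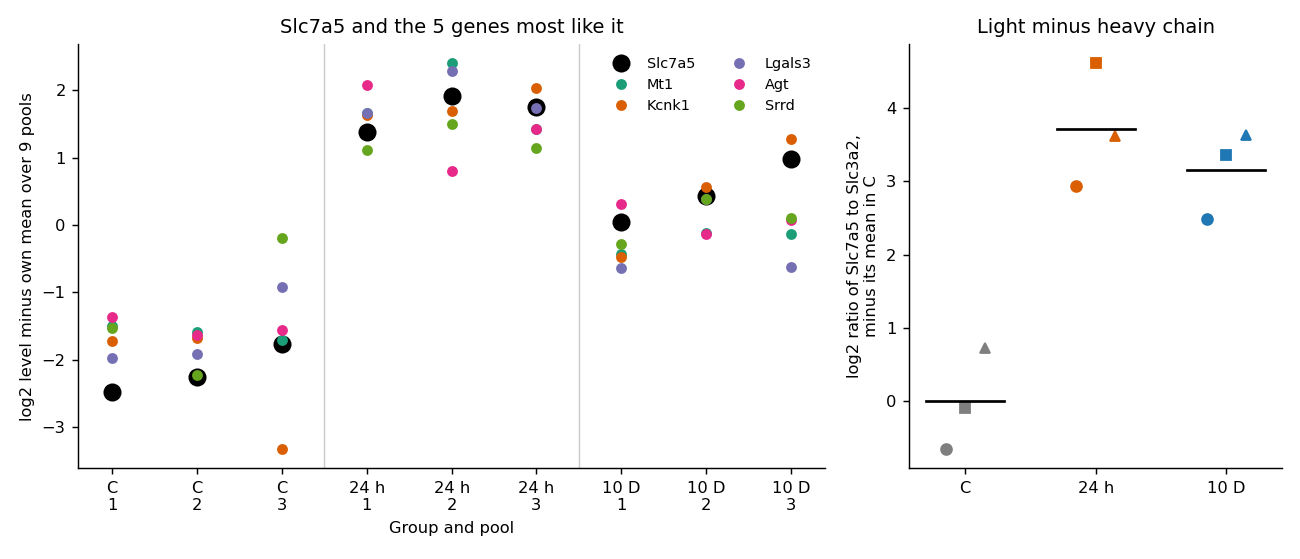
Left, log2 level of Slc7a5 (large black points) and of the 5 genes with the most similar profile, each minus its own mean over the 9 pools, by group and pool. Right, log2 ratio of the Slc7a5 to the Slc3a2 level minus its mean over the C pools, with 1 point per pool and a line at the group mean. The 3 groups separate in Slc7a5, and the ratio, from signals as measured, lies between 2.49 and 4.61 in the treated pools, above all C pools.

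The 5 genes whose log2 profile over the 9 pools lay nearest to that of Slc7a5, among 10049 genes on the same chip, were Mt1, Kcnk1, Lgals3, Agt and Srrd. Mt1 encodes a metal-binding metallothionein, Kcnk1 a potassium channel subunit, Lgals3 the lectin galectin-3 and Agt angiotensinogen. Their root-mean-square distances from Slc7a5 ran from 0.630 for Mt1 to 0.734 for Srrd in log2 units, against a median of 1.64 over the genes. This measure is a description over 9 pools that includes the difference between the groups. All 5 were called higher at 24 h against C, with log2 changes between 2.57 for Srrd and 4.02 for Kcnk1. This follows from the choice of genes near a profile with a large rise at 24 h, and is no separate result. Mt1 (1422557_s_at), the nearest, averaged 79.8 at 24 h, against 7.15 in C, and 18.5 at 10 D, and was the only one of the 5 called lower at 10 D than at 24 h (log2 difference -2.06, adjusted p = 0.0402). Slc7a5 was not called in that direct comparison.

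**Figure D3:**
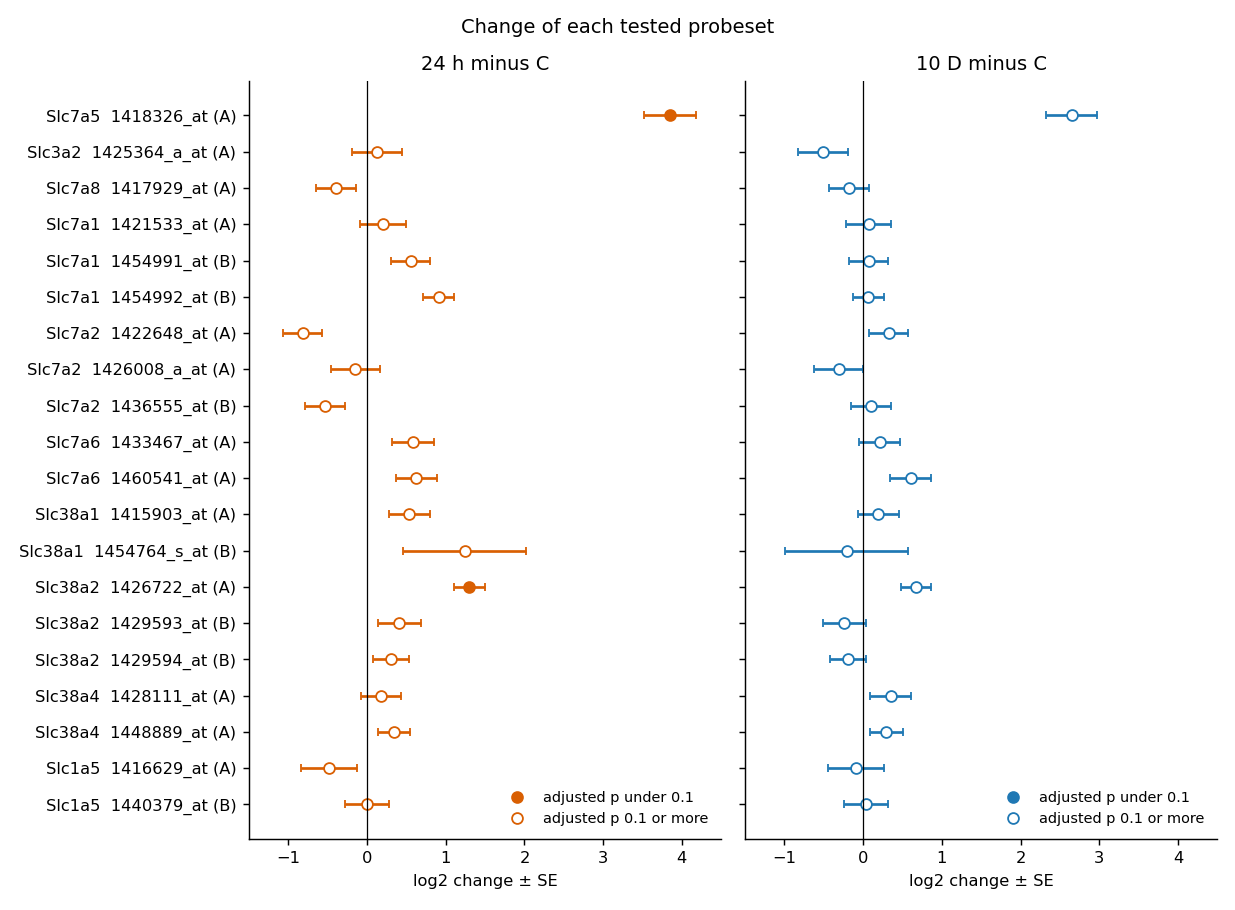
Log2 change ± SE of each of the 20 tested transporter probesets at 24 h against C (left) and 10 D against C (right), with the chip (A or B) in parentheses. Filled points have an adjusted p under 0.1. Only Slc7a5 and Slc38a2 1426722_at are filled at 24 h, and no point is filled at 10 D.

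Among the sodium-coupled carriers, Slc38a2 rose at 24 h on 1 of its 3 probesets, and Slc38a1 and Slc38a4 were not called. On MOE430A, Slc38a2 (1426722_at) was at 10.0, 12.0 and 11.6 in the C pools, 25.3, 32.7 and 25.2 in the 24 h pools, and 17.7, 19.2 and 16.7 in the 10 D pools. As with Slc7a5, the 3 groups did not overlap and 10 D lay between the others. The log2 change was 1.30 ± 0.20 at 24 h against C, or 2.46-fold (adjusted p = 0.0379), and 0.67 ± 0.20 at 10 D against C, or 1.59-fold (adjusted p = 1.00, unadjusted p = 0.006). The 24 h call was lost without C pool 1, 2 or 3 or without 24 h pool 2 or 3, with adjusted p between 0.127 and 0.233, while the log2 change stayed between 1.17 and 1.36. Without pool 2 of 24 h and of 10 D it was 1.17 and the call held (adjusted p = 0.0187, range over all settings 0.00518 to 0.233). The upstream bases of this gene are those printed with Slc7a1 and Slc3a2.

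The other probesets of Slc38a2, both on MOE430B, showed smaller differences from C. Probeset 1429594_at was at 2.38, 2.40 and 2.09 in the C pools, 2.94, 2.96 and 2.56 in the 24 h pools, and 1.82, 1.89 and 2.35 in the 10 D pools, so the 24 h pools were above those of both other groups, with a log2 change of 0.30 ± 0.23 against C (adjusted p = 0.780). Probeset 1429593_at had a log2 change of 0.41 ± 0.27 at 24 h and -0.24 ± 0.27 at 10 D against C, with pools that overlapped C. Its 10 D pools, at 4.78, 3.95 and 6.39, all lay below its 24 h pools, at 7.59, 9.5 and 6.52. That log2 difference of 10 D from 24 h was -0.65 ± 0.27 (adjusted p = 0.871), compared with -0.63 ± 0.20 on 1426722_at (adjusted p = 0.664). At 24 h the 3 probesets had the same sign, and at 10 D they did not. Which part of the transcript each probeset matches is not given in the sources used here.

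Slc38a1, known as SNAT1, had a level of 1.60, 2.48 and 2.19 in the 24 h pools, against 1.46, 1.20 and 1.61 in the C pools, on 1415903_at. The 24 h and C pools overlapped by a narrow margin, and the log2 change of 0.54 ± 0.26 was not called (adjusted p = 0.626). Its other probeset, 1454764_s_at, was near the lower limit of the tested signals in C, and its 24 h pools were at 1.70, 0.258 and 1.13, so that 1 pool lay below and the others above the C pools. Slc38a4, or SNAT4, the carrier of this group that can also take up cationic amino acids, averaged 8.48 ± 0.91 at 24 h, against 6.69 ± 0.74 in C (SD, n = 3 each), on 1448889_at. All 24 h pools of this probeset lay above all C pools, by a log2 change of 0.34 ± 0.21 (adjusted p = 0.704), and 1428111_at gave 0.18 ± 0.26. In the RefSeq gene table Slc38a1, Slc38a2 and Slc38a4 are neighbours on chromosome 15, with Slc38a2 in the middle and 0 protein-coding genes between it and either of the others. Only Slc38a2 of the 3 neighbours was called, and whether its change differed from theirs was not tested.

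**Figure D4:**
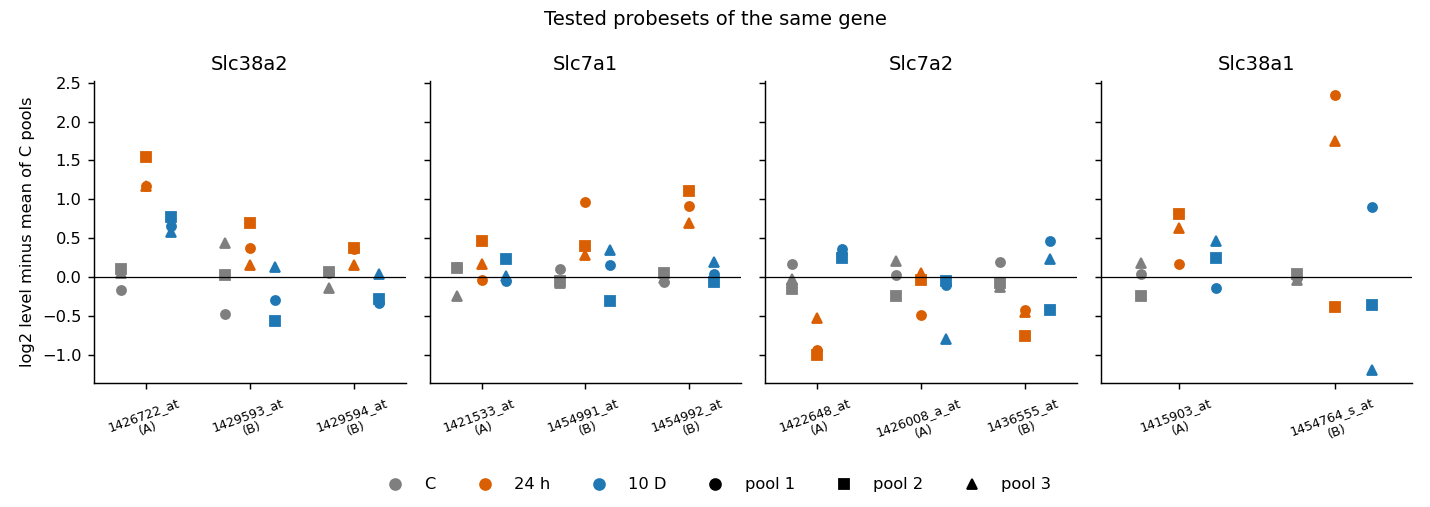
Log2 level of each pool minus the mean of the C pools, for the tested probesets of Slc38a2, Slc7a1, Slc7a2 and Slc38a1, with the chip (A or B) under each probeset. Symbols mark pools 1, 2 and 3 and colours the groups C, 24 h and 10 D. The 24 h pools of Slc38a2 lie highest on 1426722_at, and those of Slc7a2 lie below all C pools on 1422648_at and 1436555_at.

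Among the cationic transporters no probeset was called, but Slc7a1 and Slc7a2 had opposite signs at 24 h. Slc7a1, or CAT1, is the general carrier of arginine and lysine, and its probeset 1454992_at was at 3.50, 3.78 and 3.62 in the C pools, 6.82, 7.85 and 5.90 in the 24 h pools, and 3.75, 3.48 and 4.17 in the 10 D pools. The 24 h pools stood above those of both other groups, which overlapped each other. The log2 change at 24 h against C was 0.91 ± 0.20, or 1.88-fold, and just missed the threshold (adjusted p = 0.111). The log2 difference of 10 D from 24 h was -0.85 ± 0.20 (adjusted p = 0.335), and the change at 10 D against C was 0.06 ± 0.20. Under 5 of 21 other settings the 24 h change was called, with adjusted p over all of them from 0.0395 to 0.388. The second MOE430B probeset, 1454991_at, gave 7.68, 5.19 and 4.77 at 24 h, against 4.24, 3.79 and 3.74 in C, again without overlap (log2 change 0.55 ± 0.25, adjusted p = 0.570). On MOE430A, 1421533_at overlapped in all comparisons, with a log2 change of 0.20 ± 0.29 at 24 h.

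Slc7a2, or CAT2, is the cationic carrier known for its splice forms in liver and in activated macrophages. Its brightest probeset, 1436555_at, was at 13.5, 10.7 and 13.3 in the 24 h pools, against 20.7, 17.2 and 16.6 in the C pools, a log2 change of -0.54 ± 0.25 (adjusted p = 0.603). The 10 D pools of this probeset ranged from 13.52 to 25.01 and overlapped C. On 1422648_at the levels were 1.16, 0.927 and 1.02 in the C pools, 0.539, 0.515 and 0.720 in the 24 h pools, and 1.32, 1.23 and 1.32 in the 10 D pools. Here all 24 h pools lay below C and all 10 D pools above it. The log2 changes were -0.82 ± 0.25 at 24 h against C (adjusted p = 0.329) and 0.32 ± 0.25 at 10 D against C (adjusted p = 1.00), and 10 D differed from 24 h by 1.14 ± 0.25 (adjusted p = 0.322). The third tested probeset, 1426008_a_at, overlapped throughout (log2 change -0.15 ± 0.31 at 24 h, -0.31 ± 0.31 at 10 D). The fourth, 1450703_at, was under the signal filter, with levels of 0.0532 or less in 2 of 3 pools at 24 h, and was not tested.

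Slc7a6, whose protein pairs with Slc3a2 and trades cationic for neutral amino acids, had both probesets higher at 24 h without overlap and without a call. Probeset 1433467_at was at 1.96, 2.44 and 1.51 at 24 h, against 1.35, 1.17 and 1.35 in C (log2 change 0.59 ± 0.26, adjusted p = 0.583). Probeset 1460541_at was at 0.864, 1.01 and 0.591 in the C pools, 1.32, 1.20 and 1.19 in the 24 h pools, and 1.27, 1.18 and 1.20 in the 10 D pools. On this probeset the treated groups overlapped each other and both lay above C. The log2 change against C was 0.63 ± 0.26 at 24 h (adjusted p = 0.526) and 0.60 ± 0.26 at 10 D (adjusted p = 1.00). The log2 difference of 10 D from 24 h was -0.02 ± 0.26.

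Slc1a5, or ASCT2, which exchanges glutamine for other neutral amino acids, overlapped between groups on both probesets. On 1416629_at its level was 3.49 ± 1.42 at 24 h, against 4.67 ± 0.85 in C, and 4.59 ± 2.01 at 10 D (SD, n = 3 each), with a log2 change of -0.48 ± 0.36 at 24 h (adjusted p = 0.774). On 1440379_at the log2 change was 0.00 ± 0.28 at 24 h and 0.03 ± 0.28 at 10 D against C. The spread among the 10 D pools of 1416629_at, from 3.23 to 6.90, was wider than the differences between the group means.

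By baseline, 9 of the 10 brightest probesets had a C mean at or above the array median, and Slc7a5 alone was below it. Of the 15 tested probesets at or above the median in C, 1 was called at 24 h (Slc38a2), with a median log2 change of 0.30. Of the 5 below it, 1 was called (Slc7a5), with a median of 0.63. The split uses the same C values as the changes, so a low C mean by itself favours a positive change. Among the 5, Slc7a5 had 3 C pools under the filter signal and Slc38a1 1454764_s_at had 2. Both passed the filter through brighter pools of the treated groups, so the 2 medians are no test of baseline. By substrate class, 1 of 3 tested probesets was called at 24 h for large neutral, 0 of 8 for cationic, 1 of 7 for sodium-coupled and 0 of 2 for neutral exchange, against 0.456% of all tested probesets. The 7 sodium-coupled probesets, which come from 3 genes, all had a positive log2 change at 24 h, from 0.18 to 1.30, and 4 of the 7 had one at 10 D. Over all tested probesets 51.8% were positive at 24 h and 51.6% at 10 D.

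The other amino acid transporters on the chips formed the nearest comparison. Of 44 such genes 35 had a tested probeset, and 0 of their 66 tested probesets were called by limma at 24 h or at 10 D against C. An unadjusted p under 0.05 was found for 4 and 1 of the 66, against 8.55% and 4.56% of all tested probesets. Their median log2 change was 0.01 at 24 h and -0.05 at 10 D, with 18 of 35 positive at 24 h. The smallest F test p-values among them belonged to Slc6a6, Slc16a10 and Slc6a17. Each is given by its probeset with the smallest p, which for Slc6a6 and Slc16a10 is also the brightest. Slc6a6, the taurine transporter, was at 47.1, 61.8 and 26.3 in the 24 h pools, against 23.17, 23.98 and 16.5 in the C pools, with no overlap (log2 change 1.02 ± 0.33, adjusted p = 0.355). Slc16a10, a carrier of aromatic amino acids, was 7.61 ± 1.14 at 24 h, against 4.78 ± 0.76 in C (SD, n = 3 each; adjusted p = 0.346). Slc6a17, a carrier of neutral amino acids, was at 1.24, 0.904 and 0.600 in the C pools, 1.89, 1.52 and 1.05 in the 24 h pools, and 2.46, 1.76 and 1.58 in the 10 D pools. Its 10 D pools lay above all C pools, and its 24 h pools overlapped both other groups (log2 change 1.11 ± 0.38 at 10 D, adjusted p = 1.00, and 0.72 ± 0.38 at 24 h, adjusted p = 0.646). No difference between the 10 transporters and these genes as lists was tested, and the 10 were chosen with earlier results of these data known.

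**Figure D5:**
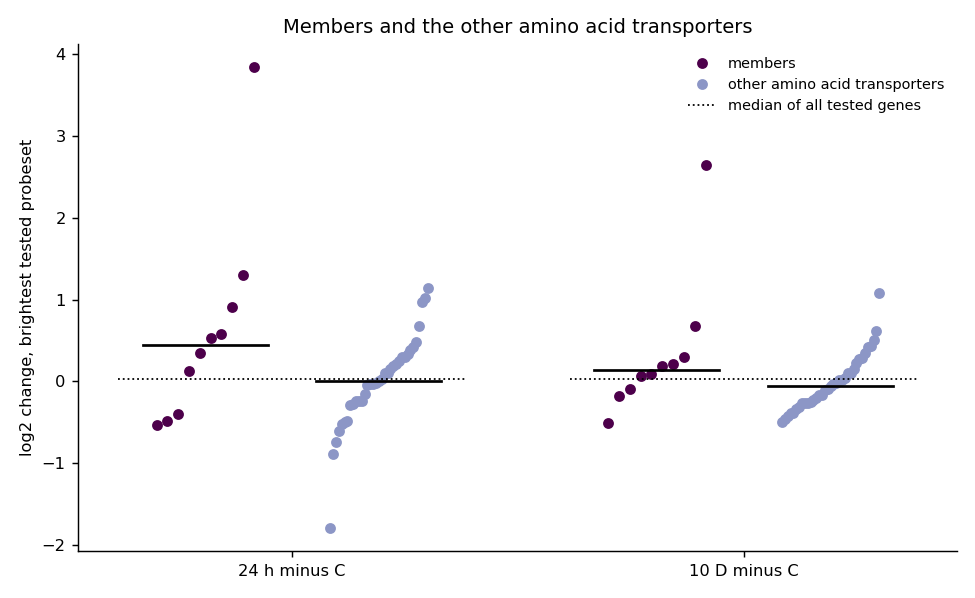
Log2 change of the brightest tested probeset of each of the 10 transporters (dark points, "members" in the legend) and of the 35 other amino acid transporters (light points), at 24 h against C and 10 D against C. Solid lines are the medians of each list and the dotted line the median of all tested genes. Slc7a5 is the highest point in both comparisons, and the other 9 transporters lie within the range of the light points, except for Slc38a2 at 24 h, just above it, and Slc3a2 at 10 D, just below it.

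Genes of the response to amino acid shortage were measured alongside, since Atf4 is a known regulator of several of the transporters. Of 16 genes and 31 tested probesets 0 were called by limma at 24 h or 10 D against C. An unadjusted p under 0.05 was found for 5 and 2 of the 31, against 8.55% and 4.56% of all tested probesets. Atf4, the transcription factor at the centre of the response, was at 14.4, 23.0 and 15.2 in the 24 h pools, against 6.95, 8.10 and 8.54 in the C pools, and missed the threshold (log2 change 1.13 ± 0.23, adjusted p = 0.106). These levels are of 1438992_x_at, the 1 of 2 Atf4 probesets with the smaller F test p. That probeset is of a kind that can also detect related sequences. Chac1, a glutathione-degrading enzyme known as an Atf4 target, was at 0.670, 1.46 and 1.32 in the 24 h pools, against 8.47, 9.24 and 6.40 in the C pools (log2 change -2.86 ± 0.61, adjusted p = 0.123). Atf3 was at 2.33 ± 0.48 at 24 h, against 1.11 ± 0.58 in C (SD, n = 3 each; adjusted p = 0.400). Atf4 and Chac1 thus lay on opposite sides of C at 24 h, each without overlap and neither called.

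Of the marker lists for muscle fibres and for 10 other cell types, limma called 2 genes at 24 h and 0 at 10 D. These were 1 of 8 tested probesets of the satellite cell and myoblast list and 1 of 4 of the neutrophil and lymphocyte list. Over all tested probesets 0.456% were called at 24 h and 0% at 10 D. Myog, a differentiation factor of myoblasts, was at 8.58 ± 1.85 at 24 h, against 2.07 ± 0.46 in C (adjusted p = 0.0531), and the sum over its list of 6 ran from 13.7 to 16.3 at 24 h, against 7.68 to 9.73 in C. That sum includes Myog and is no separate result. Sums add levels of different probesets and are compared only between pools. Of the 6, 3 had a positive and 3 a negative log2 change at 24 h, with a median of 0.00, and 0 of the other 5 were called. S100a8, a neutrophil protein, was at 2.78, 2.07 and 2.05 in the 24 h pools, against 0.205, 0.0354 and 0.196 in the C pools (adjusted p = 0.0439), while S100a9 was at 0.58 ± 0.10 at 24 h, against 0.44 ± 0.40 in C (adjusted p = 0.849). As with Slc7a5, the C signals of S100a8 were all under 14.1, so its probeset passed the filter only through its treated pools. The sum over the 4 tested neutrophil and lymphocyte markers, which includes S100a8, ran from 5.23 to 6.07 at 24 h, against 3.24 to 4.87 in C, with 2 of the 4 changes positive and 2 negative. Cd79a, a B cell marker, averaged 0.97 ± 0.10 at 24 h, against 1.91 ± 0.33 in C (SD, n = 3 each), with all 24 h pools below all C pools (adjusted p = 0.315). Myog and S100a8 were higher at 24 h in the same pools as Slc7a5 and Slc38a2, and their part in those results was not tested. The muscle fibre markers were tested for 12 of 12 genes with 0 called, and their summed level ran from 1735 to 2250.0 at 24 h, against 2007 to 3091 in C. All 12 had a negative log2 change at 24 h, with a median of -0.26, as had all 6 fibroblast markers (median -0.37) and all 5 keratinocyte markers (median -1.10), with 0 called in either list. At 10 D, 11 of the 12 muscle fibre markers were negative (median -0.25). So were all 5 tested adipocyte markers (median -0.99), of which 4 were negative at 24 h (median -0.49). The 3 tested Schwann cell markers were all positive at 10 D (median 0.37). The part of these shifts in the transporter results was not tested.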

How the data were processed

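RNA pools of gracilis muscle, 9 in all, each went on 1 MOE430A and 1 MOE430B chip (18 arrays). The authors quantified the images with MAS 5.0, and the deposited values are these signal intensities on a linear scale, 1 per probeset and not scaled between arrays. Signals were scaled to the array median and log2 transformed, after the 18 values of 0 had been replaced by 0.05. Gene names are those of the platform annotation in their current RefSeq form (34945 probesets had 1 symbol, 932 several and 9160 none). For 100 probesets present on each chip only the MOE430A values were used.

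Probesets were tested where their mean log2 signal reached percentile 25 of the chip (a signal of 14.1 or 6.97), which kept 33752. One linear model of the 3 groups was fitted per chip in R 4.3.3 with limma 3.58.1 (lmFit, eBayes with an intensity trend, 6 residual degrees of freedom), with a Benjamini-Hochberg adjustment over the 2 chips jointly. A call is an adjusted p under 0.1. The groups follow the sample labels. The number of arrays limits the precision. The fit was tested on simulated data with noise independent between pools. That test does not cover the shared deviations of the treated pools.

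The text covers every probeset of the 10 genes, with the brightest tested one standing for the gene where 1 value is given. Of the other amino acid transporters and the genes of amino acid shortage it covers the 3 with the smallest F test p. Of the marker lists it covers the called genes. S100a9 and Cd79a, also among the 3 smallest of their list, were added after the values were seen. The remaining genes with the 3 smallest p-values in the marker lists are not given. Each gene of a further list is given by its probeset with the smallest F test p. The 5 genes nearest to Slc7a5 were taken by root-mean-square distance of centred log2 profiles. Genes and lists were chosen with earlier results of these data known. Alternatives covered the filter, scaling, offset, moderation, array weights, a replicate block, probeset kind and each pool left out. The setting without pool 2 of 24 h and 10 D, the raised C signals of Slc7a5 and the motifs other than TGACGTCA and TGATGNAA were added after seeing the data.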

Additional observations from a re-analysis of the deposited data

Results flagged for a closer look

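Slc7a2 on probeset 1422648_at lay on opposite sides of C in the treated groups. All 24 h pools lay below the mean of the C pools and all 10 D pools above it, and the log2 difference of 10 D from 24 h was 1.14 ± 0.25. By limma neither the change at 24 h (adjusted p = 0.329) nor that at 10 D (adjusted p = 1.00) nor this difference was called (adjusted p = 0.322), and over 20 other settings its adjusted p ran from 0.0137, with array weights, to 0.828. The brightest Slc7a2 probeset, 1436555_at, gave a difference of 0.64 ± 0.25 in the same direction (adjusted p = 0.839), and 1426008_a_at gave -0.16 ± 0.31.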

How the results depend on the processing

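Besides the settings reported, 21 others were run. For 16 log2 changes of single probesets with an unadjusted p under 0.05, 331 values were obtained, and none changed sign. Of these, 314 kept their side of the threshold, 6 lost a call, all for Slc38a2 1426722_at at 24 h, and 11 gained one. Without the intensity trend the count at 24 h was 1, with the Slc38a2 adjusted p at 0.108 (range over its settings 0.00518 to 0.233). The F test called 1 of the transporter probesets, in place of 2, with no dim filter, the filter at percentile 50 (where Slc7a5 was not tested), quantile normalization, the trimmed mean, the median over tested probesets, no intensity trend and the unmoderated linear model. With array weights the counts were 3 at 24 h, 4 at 10 D, 4 between 10 D and 24 h and 6 in the F test, and over all probesets 888, 2880, 2138 and 4265, but that fit stopped before it converged and gave 10 D pool 3 a weight of 17.0 on MOE430A. Over all probesets, the planned settings other than array weights and the pools left out gave 52 (no intensity trend) to 225 (filter at percentile 50) calls at 24 h, against 154, 24 to 87 in the F test, against 73, and 5 to 40 between 10 D and 24 h, against 17. Leaving out 1 pool at a time gave 1 to 3 calls at 24 h, 0 at 10 D, 0 between 10 D and 24 h and 1 to 2 in the F test. The 24 h count was 1 without C pool 1, 2 or 3 or 24 h pool 2 or 3, and 3 without 10 D pool 2. The F count was 2 only without 10 D pool 2. Over all tested probesets the 24 h count ran from 24, without C pool 1 or 2 or 24 h pool 3, to 432, without 10 D pool 2.

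Pool numbers are shared between groups, but the labels give them no meaning and they were not taken as pairs. Deviations of same-numbered C and treated pools correlated between -0.07 and 0.05. Those of 24 h and 10 D did so between 0.10 and 0.56 on MOE430A and between 0.01 and 0.16 on MOE430B, so pools of these groups deviated together on MOE430A. With pool number as a replicate block, the counts were 2 at 24 h, 1 at 10 D (Slc7a5, adjusted p = 0.0954, range over its settings 0.000216 to 0.855), 0 between 10 D and 24 h and 2 in the F test, and over all probesets 209, 3, 17 and 66. Slc7a5 was called at 24 h under all 20 settings that test its probeset, with a log2 change from 2.54, with an offset of 16, to 4.04. Its dim signal in C limits the size of that change.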
